A study of Homo sapiens with 30 samples.

Results

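The comparison described here set LNCaP cells whose mTOR was kept out of the nucleus against LNCaP cells with wild-type mTOR, both under the androgen R1881. It used 6 of the 30 RNA sequencing samples of the study, the 3 NES and the 3 WT libraries treated with 10 nM R1881, and covered every gene of the deposited count table. LNCaP is an established human prostate cancer line that responds to androgen. In NES, cells with a short hairpin RNA against mTOR were rescued with mTOR tagged with a nuclear export signal, and in WT the same knockdown was rescued with untagged wild-type mTOR, in both through an inducible system. Both groups grew for 48 h in RPMI with 2% charcoal-stripped serum, which removes androgen, and then for 24 h with R1881, a synthetic androgen. The same 2 lines given 0.1% ethanol vehicle in place of R1881, 3 libraries each, served as a second, separate measurement of the same difference. The other lines of the study, which carry a nuclear localization signal (NLS), a kinase-dead form of it (NLSKD) or an empty vector (EV), are named only where their level places a gene. The labels call the samples triplicates and do not say whether they came from separate cultures, nor whether a line is 1 clone or a pool, so the p-values cover the variation among these libraries alone, part of which may be technical, and a difference between 2 lines cannot be told apart from a difference between the 2 rescue proteins.

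mTOR is a protein kinase that works in a pair of complexes, one built on RPTOR and one on RICTOR, and couples nutrients and growth factors to protein synthesis, lipid synthesis, autophagy and cell growth. Most of its known substrates lie in the cytoplasm and at the lysosome, and a pool of mTOR has also been found in the nucleus and on chromatin. Androgen switches on genes of secreted prostate proteins such as KLK3 (prostate-specific antigen) and KLK2 and switches off other genes, among them the UGT2B enzymes that inactivate androgens. The comparison asks which transcripts depend on whether the rescue mTOR can stay in the nucleus when androgen is present.

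The 6 libraries held 23.8 to 61.8 M counts, with the deepest being NES replicate 1, and 4.63% to 9.005% of counts came from mitochondrially encoded genes. Levels are given as CPM (counts per 1 M counts of the library). Of 58735 genes, 18296 passed a filter on low counts and were tested. A gene was called where the adjusted p of edgeR's quasi-likelihood test was under 0.05. Of 12 prostate luminal markers, 11 reached 1 CPM in the 6 libraries, against 6 of 11 basal, 4 of 14 neuroendocrine, 9 of 17 mesenchymal, 1 of 7 endothelial and 0 of 11 blood cell markers, and TP63, INSM1, CDH2, CDH5 and CD3E had no count in any of them. These are bulk samples, in which fewer cells of a type and less RNA per cell cannot be told apart.

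NES and WT differed in a limited set of genes that held their direction under vehicle as well. Under R1881, 150 genes were higher and 116 lower in NES, 1.45% of those tested (0.82% higher and 0.634% lower). The genes higher in NES included NOVA1, COL12A1, UNC80, CLU, TMEM45B and the prostate proteins KLK2 and ACPP, and those lower in NES included CNTN5, EPHA3, RALYL and genes of the protocadherin beta family. Of the 266 genes, 238 were protein-coding, 204 differed at least 2-fold, 88 at least 4-fold and 35 at least 8-fold (28 higher and 7 lower). In 265 of them the 3 NES and the 3 WT libraries did not overlap, against 16.7% of all genes tested (8.6% higher in NES and 8.12% lower), and VWF was the exception. The share called was 0.327% under 1 CPM, 2.05% at 1 to 5 CPM, 3.03% at 5 to 20 CPM, 1.43% at 20 to 100 CPM and 0.861% at 100 CPM or more, so it was smaller at both ends than in the middle. Fold changes are log2 ratios of NES over WT with their standard error, and SDs are over 3 libraries. The median over all tested genes was 0.00588.

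How many genes were called depended on single libraries and on the model. A fit with the replicate number as a block called 589 genes (332 higher, 1.81% of those tested, and 257 lower, 1.4%, together 3.22%), including all 266 in the same direction. The count was 177, 140 and 138 without NES replicate 1, 2 or 3, and 137 and 152 without WT replicate 1 or 3. Of the 59 called genes named by a rule set out with the methods, 33 kept their call without any 1 of the 6 libraries and 26 did not.

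**Figure D1:**
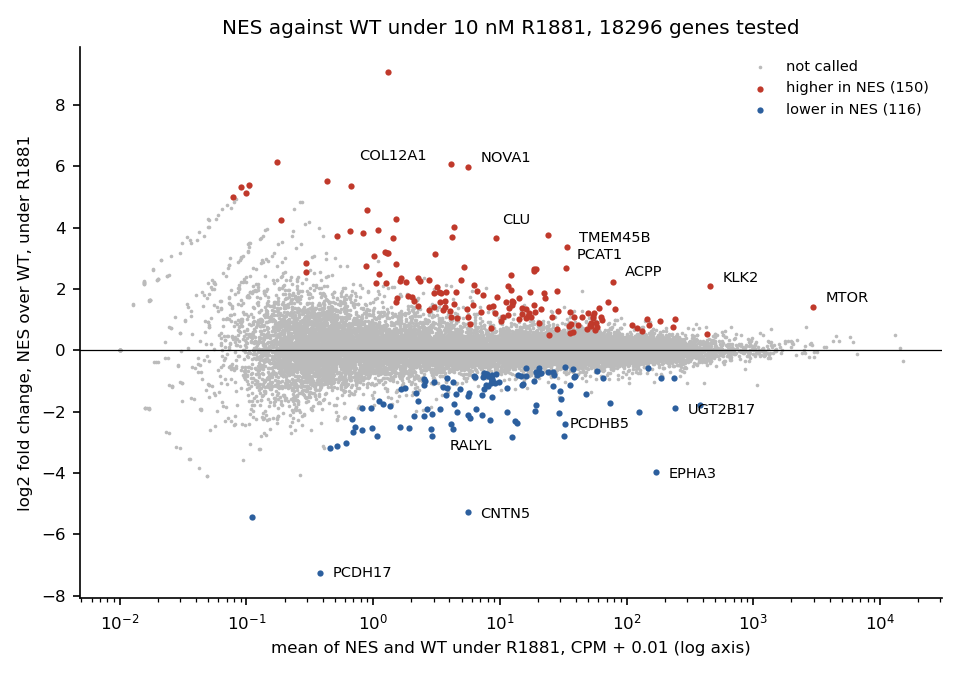
Each point is 1 of 18296 genes: the x axis is its mean level in NES and WT under R1881 (CPM plus 0.01, log axis) and the y axis its log2 fold change, NES over WT. The 150 genes higher in NES (red) and the 116 lower in NES (blue) lie at all levels, and few of the most abundant genes are among them. PCDH17 had no count in NES, so its height on the axis is a fitted value.

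MTOR itself comes first, since its transcript is what the lines were built to change. It had 5865, 3183 and 3838 CPM in NES, against 1515, 1813 and 1480 CPM in WT. All NES libraries lay above all WT libraries, and NES replicate 1 was the highest. The log2 fold change was 1.42 ± 0.33 (edgeR adjusted p = 0.0220), and under vehicle it was 1.51 ± 0.33 (adjusted p = 0.0151). The call under R1881 ended without NES replicate 1 or any 1 of the WT replicates (highest adjusted p = 0.153), and it passed in 13 of 19 alternative fits. EV averaged 66.1 ± 9.54 CPM, NLS 1037 ± 362 CPM and NLSKD 1082 ± 365 CPM under R1881 (SD, n = 3 each). The count covers the whole gene (chr1:11106535-11262507, minus strand, hg38), so reads of the rescue construct and of the remaining endogenous transcript are not separated, and the place of mTOR and its amount cannot be told apart in this comparison. The 11 other subunits and partners of mTOR tested were not called, among them RPTOR (61.0 CPM in NES and 59.3 CPM in WT), RICTOR (23.9 CPM in NES and 30.2 CPM in WT) and MLST8 (135 CPM in NES and 109 CPM in WT).

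Among androgen-induced genes, a minority was higher in NES, and none was lower. Of 66 tested, 6 were higher, against 0.82% of all genes: KLK2, ALDH1A3, TRPM8, EAF2, KRT19 and PMEPA1. The median log2 fold change of the 66 was 0.229, against 0.00588 over all genes tested. With the replicate block 11 were higher and 1 lower, against 1.81% higher and 1.4% lower among all genes. The 6 became 2 without NES replicate 2, 3 without NES replicate 3, 2 without WT replicate 2 and 1 without WT replicate 3. KLK2, a secreted serine protease of the prostate, had 679.6, 761 and 760.4 CPM in NES, against 170.0, 167 and 179 CPM in WT. The 3 NES libraries lay close together and far above WT, at a log2 fold change of 2.09 ± 0.25 (edgeR adjusted p = 9.53e-06). The gap was there without androgen too, with 47.6 ± 6.35 CPM in NES and 7.05 ± 0.53 CPM in WT under vehicle (log2 fold change 2.75 ± 0.26, adjusted p = 1.98e-07). EV averaged 795 ± 80.3 CPM of KLK2 under R1881, NLS 260.5 ± 39.8 CPM and NLSKD 260.4 ± 40.8 CPM, so NES stood near EV and WT nearer the nuclear forms.

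KLK3, which encodes prostate-specific antigen and lies next to KLK2, was not called under R1881. It had 4313, 5881 and 5436 CPM in NES, against 3165, 4261 and 3924 CPM in WT. The groups did not overlap, although the lowest NES library lay just above the highest WT library (log2 fold change 0.46 ± 0.31, edgeR adjusted p = 0.79). Under vehicle KLK3 was higher in NES, with 1389 ± 281 CPM, against 482.6 ± 92.9 CPM in WT (log2 fold change 1.53 ± 0.32, adjusted p = 0.00978). The difference between these 2 changes was -1.06 ± 0.44 on the log2 scale and did not pass (adjusted p = 1.0). Of 5 kallikreins tested, KLK2 alone was called under R1881, where 1.45% of all genes were called. KLK15 (6.33 CPM in NES and 2.79 CPM in WT) was called with the replicate block, and KLK4 had 173 CPM in NES and 169 CPM in WT. KLK2 and KLK3 are similar in sequence, and how reads that match both were counted is not given in the sources used here, so the split of reads between them is uncertain.

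The promoters of the 2 kallikreins are shown because they are related by sequence and differed in their values here. Both windows run from 250 bases before to 50 after the start that RefSeq gives (GRCh38.p14), and the KLK2 start lies inside the longer gene of the count table. Capitals mark the longest run of letters that both windows share, 80 bases, which begins 160 bases before the start in KLK2 and 154 in KLK3.
KLK2, chr19:50873189-50873488, + strand: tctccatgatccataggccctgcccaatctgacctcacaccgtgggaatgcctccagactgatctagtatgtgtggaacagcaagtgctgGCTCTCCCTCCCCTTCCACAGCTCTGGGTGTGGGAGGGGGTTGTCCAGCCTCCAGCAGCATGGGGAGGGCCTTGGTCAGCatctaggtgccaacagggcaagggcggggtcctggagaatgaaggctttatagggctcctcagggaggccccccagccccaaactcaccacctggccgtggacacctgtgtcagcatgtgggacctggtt
KLK3, chr19:50854665-50854964, + strand: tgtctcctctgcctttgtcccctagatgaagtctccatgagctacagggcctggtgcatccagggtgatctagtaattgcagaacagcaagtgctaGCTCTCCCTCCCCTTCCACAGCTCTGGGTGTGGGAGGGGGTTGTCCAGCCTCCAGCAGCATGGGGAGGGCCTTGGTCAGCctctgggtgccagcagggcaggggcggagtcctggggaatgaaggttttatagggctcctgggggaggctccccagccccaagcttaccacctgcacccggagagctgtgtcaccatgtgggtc
The letters AGAACA, a core of androgen response elements, were searched on both strands and occur in the KLK3 window but not in the KLK2 window, and in 5192 of all 35116 RefSeq promoters of this length (14.8%). A match is a description of the sequence only, and its absence says only that these letters are not in this window.

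The remaining androgen-induced genes that were called had smaller differences. TRPM8, a cold-sensing calcium channel of the prostate, had 127, 101 and 91.2 CPM in NES, against 44.1, 37.3 and 24.9 CPM in WT (log2 fold change 1.59 ± 0.36, edgeR adjusted p = 0.0163). Its groups stood well apart, and under vehicle it was also higher in NES (2.76 ± 0.43, adjusted p = 0.000398), although the call under R1881 ended without NES replicate 1, WT replicate 2 or WT replicate 3 (highest adjusted p = 0.133). ALDH1A3, which makes retinoic acid from retinal, averaged 21.6 ± 2.56 CPM in NES and 10.5 ± 2.62 CPM in WT (SD, n = 3 each), and EV averaged 149 ± 10.2 CPM. Its call ended without NES replicate 2 or WT replicate 3, and that of EAF2 without NES replicate 2 or 3 or WT replicate 2 or 3 (highest edgeR adjusted p = 0.108 for ALDH1A3 and 0.145 for EAF2). PMEPA1, a membrane protein that dampens TGF-beta signalling, averaged 510.0 CPM in NES and 356 CPM in WT (log2 fold change 0.52 ± 0.13, adjusted p = 0.044), a call that ended without any 1 of the 6 libraries. FKBP5, a chaperone of steroid receptors, had 1444 ± 309 CPM in NES and 1167 ± 218 CPM in WT (adjusted p = 0.827). TMPRSS2, a surface protease, had 1405 ± 47.2 CPM in NES and 986 ± 226 CPM in WT (log2 fold change 0.51 ± 0.20, adjusted p = 0.326).

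Of 13 prostate lineage transcription factors tested, SOX9 alone was called, where 1.45% of all genes were called. SOX9, a factor of gland development, had 23.9, 21.2 and 19.4 CPM in NES, against 9.52, 8.54 and 6.95 CPM in WT. All 3 NES libraries lay above all 3 WT libraries, and the log2 fold change was 1.37 ± 0.24 (edgeR adjusted p = 0.00199). Under vehicle the levels were alike in the mean, 16.5 ± 2.91 CPM in NES and 16.4 ± 3.52 CPM in WT (0.01 ± 0.24). The pioneer factor FOXA1 had 669 CPM in NES and 659.9 CPM in WT, and HOXB13 489.6 CPM in NES and 417 CPM in WT.

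Among androgen-repressed genes, most of those called were lower in NES. Of 22 tested, 5 were lower in NES (UGT2B17, OPRK1, SERPINI1, BCHE and UGT2B15), against 0.634% of all genes, and 1 was higher (CAMK2N1), with a median log2 fold change of -0.455. The lower count was 3 without NES replicate 3 and 6 with the replicate block (1.4% of all genes), which added ACKR3. UGT2B17, which conjugates androgens with glucuronic acid for removal, had 131, 87.7 and 90.5 CPM in NES, against 464, 348 and 335 CPM in WT. Every WT library lay far above every NES library, at a log2 fold change of -1.89 ± 0.27 (edgeR adjusted p = 0.00014). UGT2B15, a close relative with the same role, had 83.2, 27.2 and 36.7 CPM in NES, against 338, 124 and 138 CPM in WT. Replicate 1 was the highest of both groups, and the call (log2 fold change -2.02 ± 0.47, adjusted p = 0.0239) ended without NES replicate 2, NES replicate 3 or WT replicate 1 (highest adjusted p = 0.297). EV had the least of both enzymes under R1881, 19.9 ± 0.36 CPM of UGT2B17 and 8.56 ± 1.58 CPM of UGT2B15.

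Of the 7 UGT2B genes tested, 2 were lower in NES (0.634% of all genes) and 4 with the replicate block (1.4% of all genes), which added UGT2B4 and UGT2B10, and the median log2 fold change was -1.76. The number was 1 without NES replicate 2, NES replicate 3 or WT replicate 1. UGT2B11 had 45.7 CPM in NES and 56.4 CPM in WT, and UGT2B28 had 22.5 CPM in NES and 30.4 CPM in WT. Members of this family share long stretches of sequence, so the assignment of reads among them is uncertain. OPRK1, the kappa opioid receptor, had 5.32, 4.98 and 3.34 CPM in NES, against 18.84, 18.97 and 17.24 CPM in WT (log2 fold change -2.003 ± 0.324, edgeR adjusted p = 0.00071). CAMK2N1, an inhibitor of the calcium kinase CaMKII, ran against the list with 13.1 ± 3.66 CPM in NES and 4.74 ± 0.69 CPM in WT (log2 fold change 1.46 ± 0.25, adjusted p = 0.00131), and its difference under vehicle was 2.12 ± 0.25 (adjusted p = 6.19e-06).

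**Figure D2:**
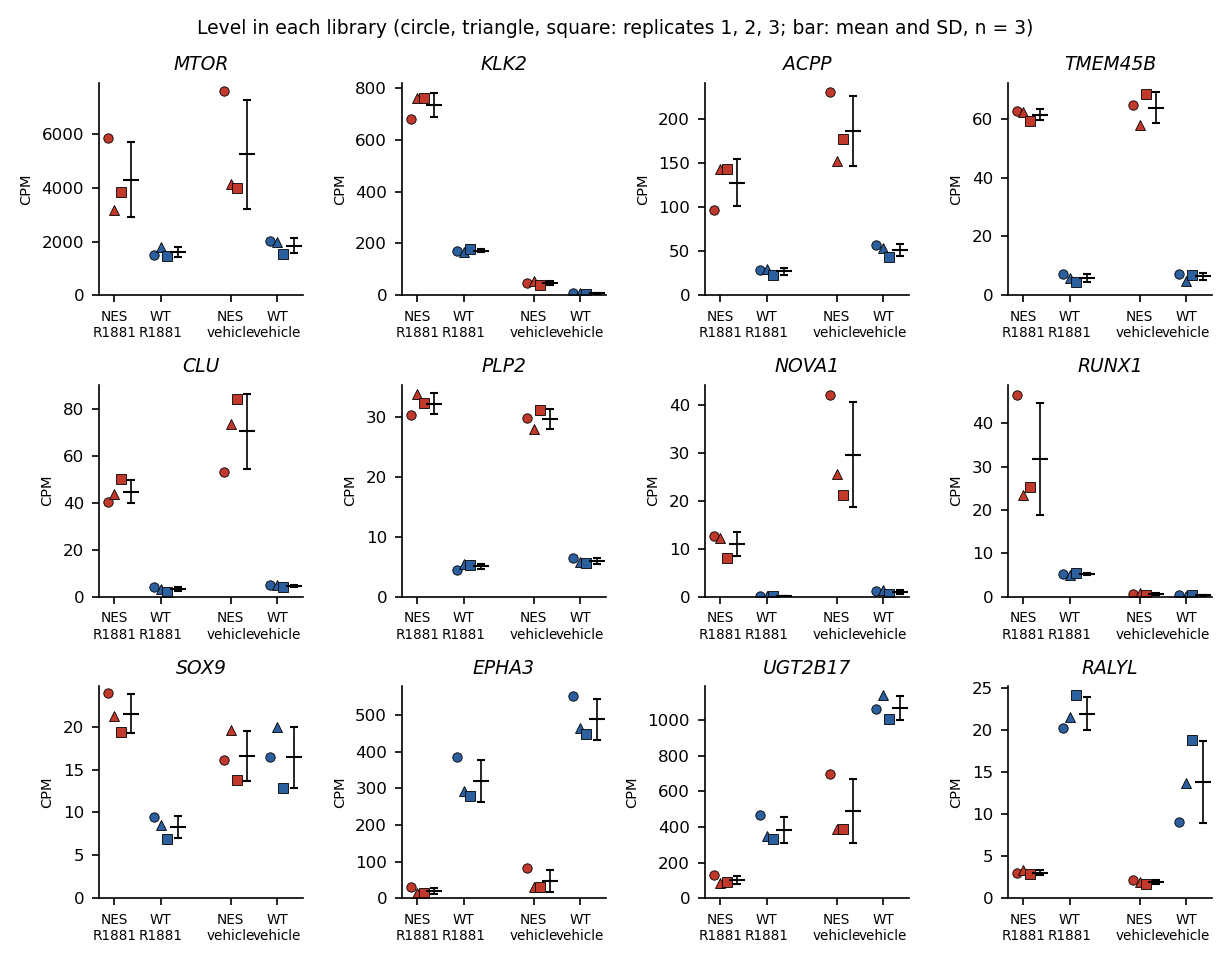
Level in CPM (y axis, from 0) of 12 genes in each library of NES (red) and WT (blue) under R1881 and under vehicle, with replicate numbers 1, 2 and 3 as circle, triangle and square and the mean with its SD beside them (n = 3). NES and WT do not overlap under R1881 in any of the 12. SOX9 overlaps under vehicle, and RUNX1 is low in both lines there.

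The genes higher in NES were ranked among called protein-coding genes with at least 5 CPM in a group and no overlap. The 15 highest of these had log2 fold changes from 2.23 to 6.07. NOVA1, a splicing regulator known from neurons, had 12.8, 12.2 and 8.08 CPM in NES, against 0.272, 0.129 and 0.107 CPM in WT (log2 fold change 5.99 ± 0.43, edgeR adjusted p = 1.35e-09). WT was nearly without it, and EV averaged 17.6 ± 0.43 CPM. CLU, the secreted chaperone clusterin, had 40.5, 43.8 and 49.9 CPM in NES, against 4.23, 3.36 and 2.24 CPM in WT (log2 fold change 3.77 ± 0.27, adjusted p = 1.35e-09). Here NES stood alone, since EV averaged 7.44 ± 1.74 CPM, NLS 10.5 ± 0.36 CPM and NLSKD 8.18 ± 3.16 CPM. TMEM45B, a membrane protein, had 62.7, 62.2 and 59.3 CPM in NES, against 7.34, 5.734 and 4.595 CPM in WT (log2 fold change 3.38 ± 0.28, adjusted p = 1.44e-08). The NES libraries varied little, and EV lay between at 21.1 ± 8.28 CPM.

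COL12A1, a chain of collagen XII, had 15.7, 5.81 and 2.61 CPM in NES, against 0.0777, 0.0862 and 0.178 CPM in WT. NES replicate 1 held far more than the others, and the log2 fold change of 6.07 ± 1.01 (edgeR adjusted p = 0.00119) rests on 9 counts in WT. Under vehicle WT had no count against 514 in NES, at least 41.3-fold higher by the lowest NES library over a floor of 3 counts for the WT group. UNC80, part of a sodium leak channel, had 7.471, 9.004 and 7.989 CPM in NES, against 0.621, 0.431 and 0.428 CPM in WT (log2 fold change 4.03 ± 0.48, adjusted p = 1.01e-05). RGS2, which shortens G protein signals, and PARVA, an adaptor at focal adhesions, were higher by 3.68 ± 0.46 and 3.65 ± 0.34 on the log2 scale. PLP2 had 30.5, 34.0 and 32.4 CPM in NES, against 4.54, 5.43 and 5.27 CPM in WT, and its adjusted p of 2.55e-10 was the smallest of the comparison (edgeR). Its level in EV was 5.58 ± 1.20 CPM, close to WT, while NLS averaged 21.7 ± 2.39 CPM.

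ACPP, the secreted prostatic acid phosphatase and a luminal marker, had 97.5, 143 and 144 CPM in NES, against 28.6, 30.3 and 22.9 CPM in WT (log2 fold change 2.23 ± 0.23, edgeR adjusted p = 1.27e-06). All NES libraries lay above WT, and under vehicle the levels were 187 ± 39.9 CPM in NES and 51.5 ± 6.81 CPM in WT. With KRT19, a keratin (14.7 ± 4.63 CPM in NES and 4.40 ± 0.46 CPM in WT), it made 2 of 12 luminal markers higher, against 0.82% of all genes. The sum of the 12 ran from 10898 to 12666 CPM in NES and from 8478 to 10611 CPM in WT. The KRT19 call ended without each library but NES replicate 1 (highest adjusted p = 0.174). RUNX1, a runt-domain transcription factor, had 46.6, 23.4 and 25.4 CPM in NES, against 5.36, 5.09 and 5.45 CPM in WT. The groups stood apart, with NES replicate 1 the highest (log2 fold change 2.59 ± 0.37, adjusted p = 0.000168), while vehicle libraries of both lines stayed under 1 CPM. PARP10, a mono-ADP-ribosyltransferase, NTNG1, a membrane-anchored netrin, CRIP2, a LIM-domain protein, and HENMT1, which methylates small RNAs of the germline, were higher by 2.31 to 2.70 on the log2 scale.

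Among long noncoding transcripts PCAT1, a prostate cancer associated RNA, had 72.2, 45.4 and 55.8 CPM in NES, against 10.9, 7.80 and 7.94 CPM in WT (log2 fold change 2.70 ± 0.21, edgeR adjusted p = 3.5e-09). No WT library came near the NES range, and under vehicle the gap was 3.03 ± 0.21. It was the 1 called of 21 prostate cancer long noncoding RNAs tested, against 1.45% of all genes, and the replicate block added ARLNC1. AC063960.2 (log2 fold change 1.32) and COLCA1 (1.24) were higher, and LINC01297 (-1.33), AL139393.2 (-1.15) and AL133338.1 (-0.81) were lower, with calls that ended without 1 to 5 of the 6 libraries taken singly. The annotation puts PCAT1, AC063960.2, COLCA1, AL139393.2 and AL133338.1 in an antisense class, and the strand setting of the counting is not given in the sources used here, so their reads cannot be told apart from those of overlapping genes on the opposite strand.

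The genes lower in NES included several receptors and adhesion proteins. EPHA3, a receptor tyrosine kinase for ephrins, had 30.1, 15.4 and 15.6 CPM in NES, against 387, 294 and 281 CPM in WT (log2 fold change -3.97 ± 0.51, edgeR adjusted p = 3.1e-05). Every WT library lay far above every NES library, and EV had 2.59 ± 0.66 CPM, less than NES. It was 1 of 2 called among 19 Eph receptors and ephrins, the other being EFNB3, a ligand, at 2.13 ± 0.70 CPM in NES and 5.01 ± 0.85 CPM in WT, whose call ended without NES replicate 2. With the replicate block 4 were lower, which added EPHA6 and EFNB2, and the median of the list was -0.00825. Of all genes 0.634% were lower, and 1.4% with the replicate block.

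CNTN5, a contactin that links neurons, had 0.589, 0.0415 and 0 CPM in NES, against 11.8, 11.5 and 9.69 CPM in WT (log2 fold change -5.27 ± 0.82, edgeR adjusted p = 0.000488). Nearly all of its 36 counts in NES came from replicate 1. SLITRK3, a synaptic adhesion protein, had 12.9, 6.97 and 3.86 CPM in NES, against 56.0, 62.5 and 49.0 CPM in WT (log2 fold change -2.80 ± 0.56, adjusted p = 0.00696), and the call ended without NES replicate 2 or 3. PCDH17, a protocadherin, had no count in NES and 58 in WT, at least 18.4-fold lower by the lowest WT library over a floor of 3 counts for the NES group. These 3 and SLITRK5 were the 4 lower genes among 41 synaptic and cell adhesion genes tested, with none higher, a median of -0.141, and 7 lower with the replicate block. The share of all genes called lower was 0.634%, and 1.4% with the replicate block. The 4 became 2 without NES replicate 2 or 3, which ended the SLITRK3 and SLITRK5 calls, and the PCDH17 call ended without NES replicate 1.

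RALYL, an RNA-binding protein, had 2.96, 3.36 and 2.87 CPM in NES, against 20.2, 21.6 and 24.2 CPM in WT (log2 fold change -2.84 ± 0.24, edgeR adjusted p = 2.91e-08). NES was the low line here, since EV averaged 28.1 ± 3.84 CPM and NLS 20.2 ± 2.58 CPM. BCHE (butyrylcholinesterase), GSTA1 (a glutathione transferase), SLC22A10 (of the organic ion transporters), OR51E2 (a prostate olfactory receptor), RNF128 (a ubiquitin ligase) and KLHL13 (an adaptor of CUL3 ubiquitin ligases) were lower, with log2 fold changes from -2.79 to -2.10. SLC22A10 was the 1 lower gene of 13 SLC22 transporters, against 0.634% of all genes. BCHE lost its call without NES replicate 3 (edgeR adjusted p = 0.052). KCND2, a potassium channel, and ST8SIA4, which adds polysialic acid to cell surface proteins, were lower (log2 fold changes -2.26 ± 0.47 and -2.11 ± 0.49), and their calls ended without any 1 of the NES replicates (KCND2) and without NES replicate 2 or 3 or WT replicate 1 or 2 (ST8SIA4). Among 19 glutamate, GABA and acetylcholine receptors, the NMDA receptor subunit GRIN3A was higher (23.2 ± 4.77 CPM in NES and 9.22 ± 1.94 CPM in WT) and the kainate receptor subunit GRIK2 lower (15.2 ± 1.86 CPM in NES and 45.9 ± 3.79 CPM in WT), and the replicate block added GRIN2C to them and SLC22A23 to the transporters. The GRIN3A call ended without NES replicate 1 or WT replicate 3, and the GRIK2 call without NES replicate 2 or 3 or WT replicate 2. Of all genes 0.82% were higher and 0.634% lower.

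The protocadherin beta genes, a tandem cluster of cell surface adhesion genes on chromosome 5, lay below WT in NES at every member tested. The family was singled out after its values were seen. The count table holds 16, of which 15 were tested, and 11 were lower in NES, against 0.634% of all genes. With the replicate block all 15 were lower (1.4% of all genes), and without NES replicate 2 or 3 the count was 5 or 6. The log2 fold changes ran from -4.05 to -1.23 with a median of -1.94. Under vehicle the median was -2.11 with 13 lower, against 0.432% of all genes. PCDHB5 (chr5:141135218-141138625, plus strand, hg38) had 15.1, 9.42 and 9.55 CPM in NES, against 45.9, 46.7 and 48.9 CPM in WT (-2.05 ± 0.20, edgeR adjusted p = 3.37e-07). PCDHB2 had 9.91, 9.67 and 6.47 CPM in NES, against 28.7, 32.3 and 29.3 CPM in WT (-1.79 ± 0.20, adjusted p = 3.35e-06). Both kept their call without any 1 library, and no NES library reached a WT library in any of the 15 genes, where 8.12% of all genes were lower in NES with no overlap.

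Summed over the family, NES held 23.4 to 40.5 CPM under R1881 and WT 116 to 126 CPM. The sum was 65.7 to 113 CPM in NLS, 84.2 to 105 CPM in NLSKD and 57.8 to 67.2 CPM in EV, so NES was the lowest and WT the highest of the 5 lines. Vehicle gave the same order, with 26.3 to 39.8 CPM in NES and 126 to 132 CPM in WT. The neighbouring gamma family differed less, with a median log2 fold change of -0.434. Of 20 protocadherin gamma genes tested PCDHGB6 was lower (-1.24 ± 0.24, edgeR adjusted p = 0.00483), against 0.634% of all genes. None of 3 alpha genes was called. These had at most 0.370 CPM in either line under R1881 and standard errors of 1.05 to 1.60, so little can be read from them. Members of the cluster resemble each other in sequence, so the split of counts between single genes is uncertain.

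**Figure D3:**
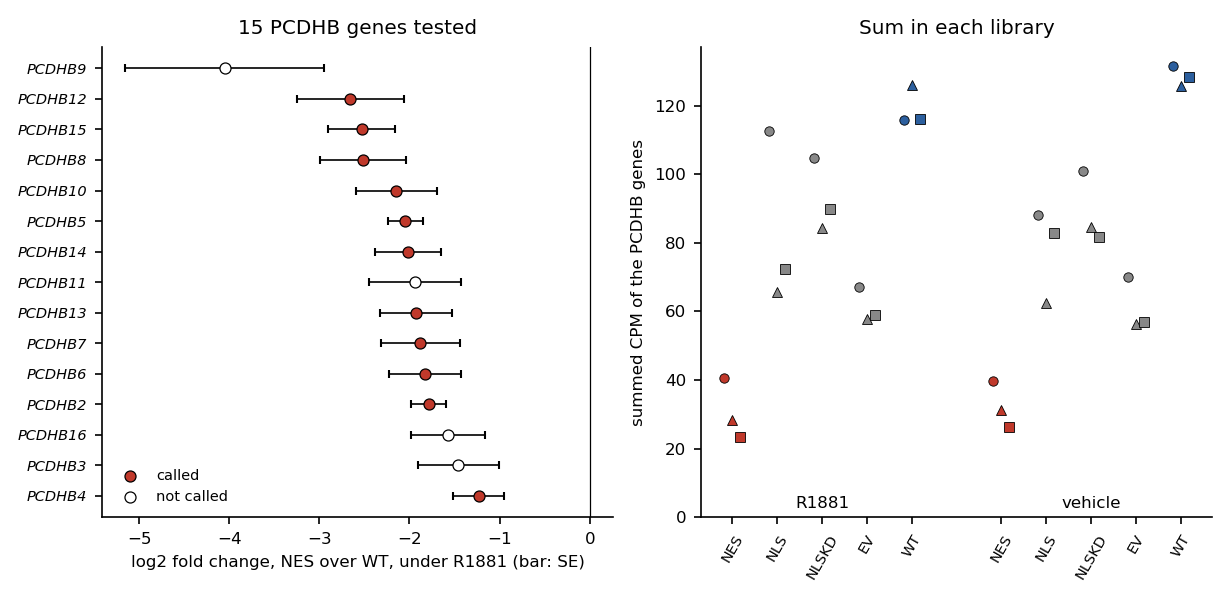
Left, log2 fold change (x axis, NES over WT under R1881, bar: SE) of the 15 protocadherin beta genes tested, filled where called; right, the summed CPM of the family (y axis, from 0) in each library of the 5 lines under R1881 and vehicle, with replicates 1, 2 and 3 as circle, triangle and square. All 15 lie below 0, and the sum is lowest in NES and highest in WT under both treatments.

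Promoters of 3 of these genes are shown because the family differed in 1 direction and its promoters share a short element. Of 14 protocadherin beta promoters in the RefSeq table (GRCh38.p14, 250 bases before to 50 after the start), 13 hold the letters GTGGCGCT, PCDHB1 being the exception, and 404 of all 35116 promoters hold them on either strand (1.15%). The letters were picked as the commonest 8 of these promoters, and a tie went to the letters found in the fewest of all promoters. Neither the 13 nor the 1.15% is thus independent of how the letters were picked. Capitals mark them.
PCDHB5, chr5:141134956-141135255, + strand: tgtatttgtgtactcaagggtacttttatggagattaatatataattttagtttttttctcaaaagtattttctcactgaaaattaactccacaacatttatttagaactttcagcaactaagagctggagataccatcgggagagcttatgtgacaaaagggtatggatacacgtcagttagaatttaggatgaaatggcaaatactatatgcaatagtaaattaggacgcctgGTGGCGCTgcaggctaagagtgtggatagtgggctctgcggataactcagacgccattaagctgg
PCDHB12, chr5:141208469-141208768, + strand: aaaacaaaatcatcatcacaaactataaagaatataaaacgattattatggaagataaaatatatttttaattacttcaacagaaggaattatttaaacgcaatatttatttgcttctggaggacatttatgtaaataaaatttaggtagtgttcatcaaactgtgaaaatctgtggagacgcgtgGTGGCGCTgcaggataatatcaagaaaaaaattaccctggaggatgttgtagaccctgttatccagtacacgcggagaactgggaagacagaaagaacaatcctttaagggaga
PCDHB16, chr5:141182137-141182436, + strand: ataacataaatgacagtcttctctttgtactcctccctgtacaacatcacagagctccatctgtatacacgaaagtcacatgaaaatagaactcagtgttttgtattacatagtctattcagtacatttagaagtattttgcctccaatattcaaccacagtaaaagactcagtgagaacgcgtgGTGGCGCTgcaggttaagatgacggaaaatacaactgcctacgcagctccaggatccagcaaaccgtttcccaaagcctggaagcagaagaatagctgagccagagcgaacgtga
PCDHB12 had 0.269, 0.0830 and 0.174 CPM in NES, against 1.32, 1.47 and 0.819 CPM in WT (-2.66 ± 0.59, edgeR adjusted p = 0.0154), and PCDHB16 had 1.08, 0.498 and 0.434 CPM in NES, against 1.75, 3.06 and 1.46 CPM in WT (-1.57 ± 0.41, adjusted p = 0.0531). Both genes are low in every library, with no overlap between the lines. The PCDHB12 call ended without NES replicate 2 or 3 or WT replicate 1 or 2 (highest adjusted p = 0.113).

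Chromosome 9 stood apart from the other autosomes and X in its median fold change, a pattern noticed in the data. Of 735 genes tested on it, 25 were higher and 1, ELAVL2, was lower in NES, 3.54% against 1.45% of all genes. The share called was close to this on X (3.21%, 10 higher and 10 lower) and was 2.82% on chromosome 5 (5 higher and 19 lower). The ELAVL2 call ended without any 1 of the 6 libraries. Over the 455 genes of chromosome 9 with at least 5 CPM the median log2 fold change was 0.314, and 84.6% lay above 0. The medians of the other autosomes and X ran from -0.165 on chromosome 18 to 0.141 on chromosome 19. Under vehicle the median was 0.298 and 89.9% lay above 0, and bins of 20 Mb along the chromosome had medians from 0.152 to 0.384. Under R1881 all 7 bins had positive medians, from 0.135 to 0.563 (the highest over 2 genes). By replicate number the median was 0.366, 0.245 and 0.325. Genes of chromosome 9 took 3.82% to 4.04% of nuclear counts in NES and 3.19% to 3.31% in WT under R1881. EV held 3.85% to 4.11%, NLS 3.48% to 3.88% and NLSKD 3.42% to 3.71%, so WT was the lowest of the 5 lines. The bin medians were positive along chromosome 9, although that of 0 to 20 Mb (0.135 over 37 genes under R1881) lay below the median of chromosome 19. In the values of single genes on chromosome 9, given next, the shift cannot be told apart from a difference of the gene itself. DNA was not measured here.

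Among the called genes of chromosome 9, PTGR1 (a prostaglandin reductase; 41.1 CPM in NES and 16.8 CPM in WT), CRAT (carnitine acetyltransferase; 74.1 CPM in NES and 34.2 CPM in WT) and CBWD1 (245 CPM in NES and 125 CPM in WT) kept their call without any 1 library. The corepressor TLE1 had 68.1 CPM in NES and 37.1 CPM in WT, and its call ended without each library but NES replicate 2. The count of 25 was 6 to 18 when 1 library was left out: 8, 10 and 8 without NES replicate 1, 2 or 3, and 6 and 10 without WT replicate 1 or 3. With the replicate block 66 were higher and 3 lower, against 1.81% higher and 1.4% lower among all genes.

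**Figure D4:**
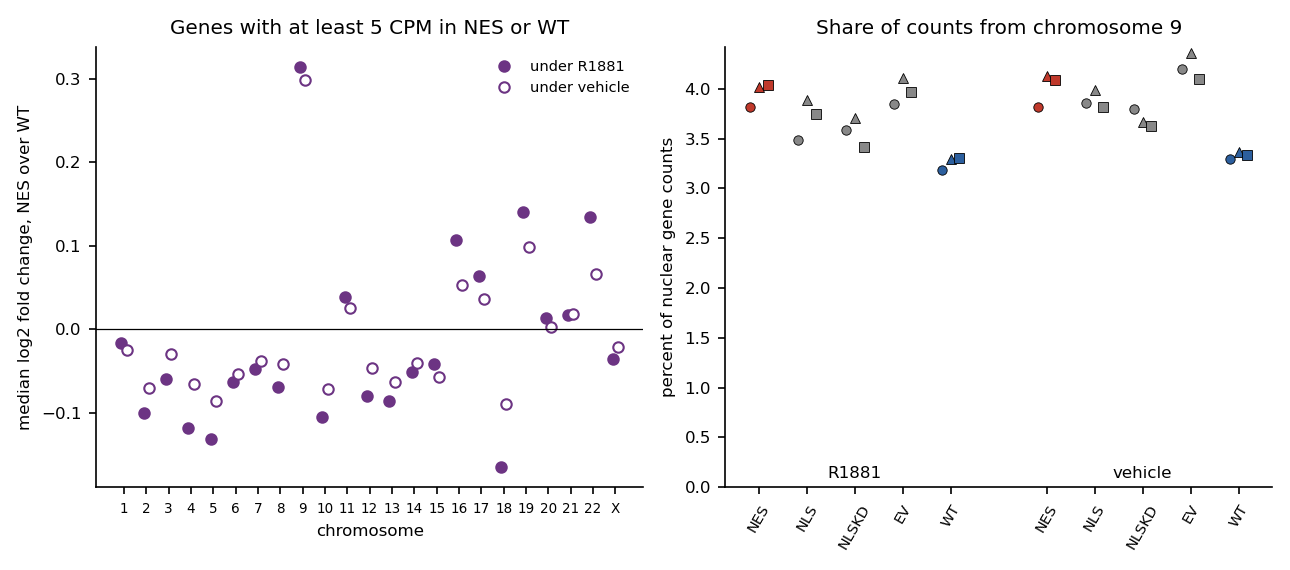
Left, the median log2 fold change (y axis, NES over WT) of genes with at least 5 CPM on each chromosome (x axis), under R1881 (filled) and vehicle (open); right, the share of nuclear gene counts from chromosome 9 (y axis, percent, from 0) in each library, with replicates 1, 2 and 3 as circle, triangle and square. Chromosome 9 has medians of 0.314 under R1881 and 0.298 under vehicle, above every other chromosome shown, and WT has the smallest share of the 5 lines.

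Of 24 X-linked cancer testis genes tested, a class normally silent outside the germline that was singled out after its values were seen, 6 were higher (MAGEC2, CTAG2, MAGEA4, SAGE1, VCX and MAGEA1) and DDX53 was lower, against 0.82% higher and 0.634% lower among all genes. MAGEA1 had 20.3, 17.6 and 19.2 CPM in NES, against 7.46, 5.95 and 5.63 CPM in WT (log2 fold change 1.59 ± 0.18, edgeR adjusted p = 5.69e-06). DDX53, an RNA helicase, had 1.51, 1.25 and 0.868 CPM in NES, against 10.4, 6.08 and 5.38 CPM in WT. CTAG2 had 2.79, 6.85 and 6.86 CPM in NES, against 0.583, 0.647 and 0.606 CPM in WT, and its call ended without any 1 of the WT replicates. SAGE1 had 38 counts in NES and none in WT under R1881, while under vehicle both lines held some (0.391 CPM in NES and 0.329 CPM in WT). With the replicate block 7 were higher and 2 lower, against 1.81% higher and 1.4% lower among all genes. The abundant MAGEA3 had 184 CPM in NES and 167 CPM in WT and was not called. The 6 became 4 without any 1 of the NES replicates and 2, MAGEC2 and MAGEA1, without any 1 of the WT replicates. Several of these genes are near-identical copies, so their counts are uncertain one by one.

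Of 1141 genes that the deposited table assigns to a transcription factor family, 9 were higher and 6 lower, 1.31%, close to the 1.45% of all genes. ZSCAN31, a zinc finger gene, had 14.5 CPM in NES and 6.80 CPM in WT (log2 fold change 1.09 ± 0.15, edgeR adjusted p = 5.99e-05), and BCL11B, a zinc finger factor known from T cells, had 1.11 CPM in NES and 4.19 CPM in WT (-1.91 ± 0.34, adjusted p = 0.00175). Both kept their call without any 1 library, as did ZNF711, SOX9 and RUNX1. The homeobox factor BARX2 had 1.77, 1.54 and 1.22 CPM in NES, against 0.194, 0.302 and 0.178 CPM in WT, and the clock factor ARNTL2 had 3.82 CPM in NES and 10.6 CPM in WT. The BARX2 call ended without NES replicate 1 or WT replicate 1 or 3, and the ARNTL2 call without NES replicate 2 or 3. The counts were 5 higher without NES replicate 3 and 3 higher without WT replicate 1, and the 6 lower became 3, 2 and 3 without NES replicate 1, 2 or 3 and 3 without WT replicate 3. With the replicate block 20 were higher and 17 lower, where 1.81% of all genes were higher and 1.4% lower.

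Lists of growth and metabolism genes tied to mTOR, upstream or downstream, held no called gene. Over 15 lists with 602 genes tested (upstream regulators and substrates of mTORC1, cholesterol, fatty acid and nucleotide synthesis, glycolysis, nuclear and mitochondrial genes of oxidative phosphorylation, ribosomal proteins, translation factors, ribosome biogenesis, ATF4 targets, lysosome and autophagy, G1/S, G2/M, and insulin and FOXO feedback) edgeR called none, against 1.45% of all genes. Of the 602, 52 had an unadjusted p under 0.05 (8.64%, against 8.77% of all genes), DESeq2 called 11, limma on log2(FPKM + 1) called 5 and the replicate block 14. Over all 18296 genes DESeq2 called 446, limma on log2(FPKM + 1) 288 and the replicate block 589 (3.22%). The log2 fold changes of the 602 lay within 0.5 of 0 for 91.5%, as for 89.2% of all genes with at least 5 CPM. The 14 included the fatty acid synthase FASN (3247 CPM in NES and 1928 CPM in WT), SESN1, a sestrin that restrains mTORC1 (71.0 CPM in NES and 115 CPM in WT), and RRAGA, a GTPase that brings mTORC1 to the lysosome (167 CPM in NES and 119 CPM in WT). Ribosomal protein genes, whose translation mTORC1 controls, had a median of -0.00751 over 78 genes.

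Some of these lists leaned to 1 side without a called member. Of 48 G2/M genes 46 lay above 0 under R1881, with a median of 0.259 under R1881 and 0.678 under vehicle. Over all genes the median was 0.00588 under R1881 and 0.000973 under vehicle. CKS2, a partner of cyclin-dependent kinases, had 47.1 CPM in NES and 26.5 CPM in WT (edgeR adjusted p = 0.138, and 0.0082 with the replicate block). Glycolysis genes had a median of 0.317, with 20 of 23 above 0. Of 49 targets of ATF4, a factor that mTORC1 feeds through translation, 40 lay below 0 with a median of -0.275. MTHFD2, a mitochondrial folate enzyme, had 127 CPM in NES and 215 CPM in WT (adjusted p = 0.0544, and 0.00356 with the replicate block), and PSAT1, of serine synthesis, 298 CPM in NES and 410.1 CPM in WT (adjusted p = 0.358).

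Of 21 replication-dependent histones 20 lay above 0 with a median of 0.814, and HIST1H2BC was called (5.35, 5.56 and 5.95 CPM in NES, against 2.95, 1.94 and 3.03 CPM in WT). Its adjusted p of 0.0341 (edgeR) lost the call without any 1 of the 6 libraries, while the replicate block called 5 histones. Of all genes 0.82% were higher, and 1.81% with the replicate block. The listed histones summed to 336 to 410.1 CPM in NES and 226 to 273 CPM in WT. These messages mostly lack a poly(A) tail, and the selection step of the library kit is not given in the sources used here.

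Stress lists held few called genes. Among all genes 0.82% were higher and 0.634% lower, and 1.81% and 1.4% with the replicate block. Of 27 heat shock genes the small heat shock proteins HSPB8 and CRYAB were higher. HSPB8 had 3.90, 4.44 and 5.25 CPM in NES, against 0.816, 0.776 and 1.18 CPM in WT (log2 fold change 2.28 ± 0.30, edgeR adjusted p = 3.42e-05), and it kept its call without any 1 library. CRYAB had 2.77 ± 0.77 CPM in NES and 0.534 ± 0.22 CPM in WT, with a call that ended without NES replicate 3 or WT replicate 1 or 2. SAT1, which acetylates polyamines for export, had 194 ± 12.6 CPM in NES and 95.3 ± 9.68 CPM in WT and was the 1 called gene of 17 in polyamine metabolism. Its adjusted p of 0.0492 (edgeR) lost the call without any 1 of the 6 libraries. BTG2, an antiproliferative gene found among both p53 targets (25 tested) and immediate early genes (26 tested), was lower (19.6 ± 2.40 CPM in NES and 34.1 ± 4.97 CPM in WT) and the only call in either list, ending without NES replicate 2 or 3 or WT replicate 1 or 2. The replicate block added SESN1 and SPATA18 among p53 targets, KLF6 among immediate early genes and AZIN1 in polyamine metabolism. None of 27 unfolded protein response genes, 26 hypoxia genes and 42 interferon genes was called by edgeR, and 1 of each was called with the replicate block. None of 6 basal, 5 neuroendocrine and 10 mesenchymal markers tested was called by edgeR, while the mesenchymal marker VIM was lower with the replicate block. The 1 endothelial marker tested, VWF, was lower (5.18 ± 0.82 CPM in NES and 9.48 ± 2.93 CPM in WT), with a call that ended without NES replicate 1 or 3 or WT replicate 2 or 3.

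The vehicle libraries gave a separate measurement of the same pair of lines. There, 140 genes were higher and 79 lower in NES, 1.2% of those tested (0.765% higher and 0.432% lower). All 266 genes called under R1881 had the same sign under vehicle, against 73.1% of all genes tested. Of them 129 were also called under vehicle in the same direction (79 higher and 50 lower), which is 48.5% of the 266 and 58.9% of the 219 genes called under vehicle, and none was called in the opposite direction. In 222 of the 266 the vehicle libraries of the 2 lines did not overlap in that direction either, where 11.7% of all genes did not overlap (6.06% higher in NES and 5.62% lower). The median log2 fold change of the 150 higher genes was 1.59 under R1881 and 1.24 under vehicle, and that of the 116 lower genes was -1.39 under R1881 and -1.09 under vehicle. Across 11143 genes with at least 5 CPM, which are not independent of each other and come from the same 2 lines, Pearson's r between the 2 sets of fold changes was 0.811.

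**Figure D5:**
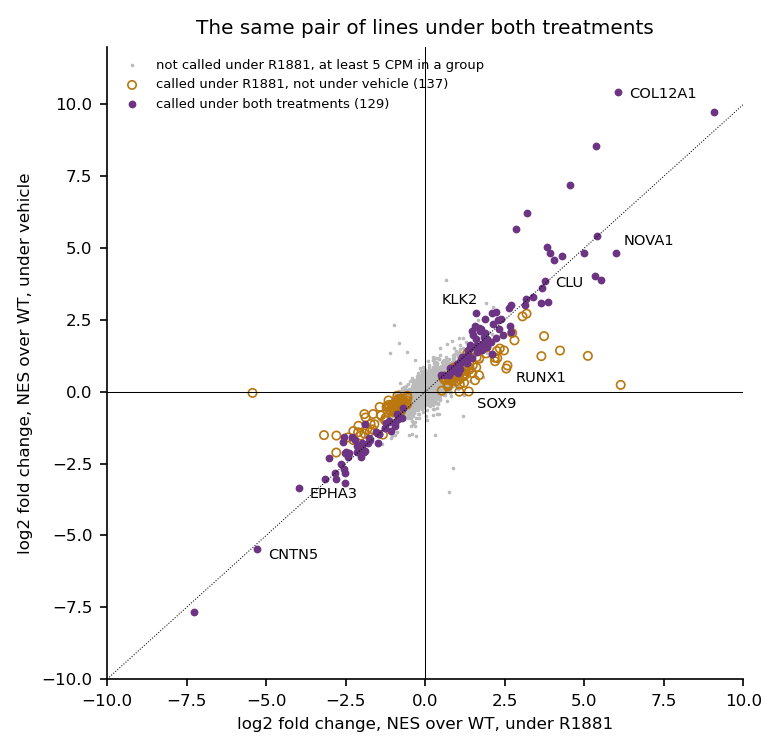
Each point is a gene, with its log2 fold change, NES over WT, under R1881 on the x axis and under vehicle on the y axis; the dotted line marks equal values. The 129 genes called under both treatments (purple) and the 137 called under R1881 alone (orange) keep the same sign. Some lie off the line, such as COL12A1 at 6.07 under R1881 and 10.43 under vehicle. SOX9 lies at 0.01 and RUNX1 at 0.91 on the y axis, and genes without counts in a group are drawn at a fitted value.

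Whether the gap between NES and WT depended on androgen was tested as a difference of the 2 differences. No gene passed with edgeR, and none with DESeq2. An unadjusted p under 0.05 was held by 274 (edgeR, 1.5%) and 360 (DESeq2) of 18296 genes. With edgeR that share was 8.77% for NES against WT under R1881 and 8.28% under vehicle. In simulated counts, which held no effect of the replicate number, the edgeR test called 11% of changes of 1 on the log2 scale. Many such differences may thus be missed. The smallest unadjusted p belonged to SOX9, whose gap was 1.36 ± 0.34 larger under R1881 on the log2 scale (adjusted p = 1.0). For RUNX1 the difference was 1.67 ± 0.62 and for KLK2 -0.66 ± 0.34 (adjusted p = 1.0 each).

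The empty vector and the nuclear forms placed the called genes between or beyond NES and WT, described by group means under R1881 without a test. Of the 150 genes higher in NES, EV was at or beyond the NES level in 57, between the lines in 81 and at or beyond the WT level in 12. NLS was at or beyond NES in 14 of them and at or beyond WT in 18. Of the 116 genes lower in NES, EV was at or below NES in 38, between in 58 and at or beyond WT in 20, while NLS was at or below NES in 1 (nearer WT or beyond it in 92). KLK2, NOVA1, UGT2B17 and EPHA3 belonged to those with EV near or beyond NES, while CLU, TMEM45B and RALYL set NES apart from EV as well as from WT.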

How the data were processed

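RNA of LNCaP lines was read from both ends, 150 bases each. Per the file headers, the authors deposited raw read counts and FPKM values (fragments scaled by gene length and depth) for 58735 genes in 30 libraries. Per the submitters' processing notes, HISAT2 2.0.5, featureCounts 1.5.0-p3 and the build hg38 were used, with no role or order given. Identifiers, starts and ends of all 58735 genes were those of GENCODE release 29. Libraries held 21.4 to 61.8 M counts, and no 2 replicates agreed within counting noise (chi-square over its degrees of freedom was 12.7 or more). Intervals and floors from counts cover counting error only.

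Counts were tested in R 4.3.3 with edgeR 4.0.16, using its two-sided quasi-likelihood F test (glmQLFTest after glmQLFit) with TMM scaling and the filterByExpr filter. One fit covered all 30 libraries with 1 mean for each of the 10 groups, since 3 libraries a group estimate the spread poorly. It had no block, since the labels state no pairing. P-values were adjusted by Benjamini-Hochberg over 18296 genes, and 40439 genes were not tested. NES was compared with WT under R1881 and under vehicle, and the 2 differences with each other. Standard errors are those the F statistic implies.

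Same-numbered NES and WT libraries deviated together from their group means (correlations 0.67, 0.27 and 0.53 under R1881 and 0.69, 0.55 and 0.29 under vehicle). Under R1881, NES replicate 2 deviated more like WT replicate 3 (0.55) than like WT replicate 2. Under vehicle, NES replicate 3 deviated more like WT replicate 2 (0.37) than like WT replicate 3. NES replicate 3 with WT replicate 2 under R1881 (0.36) and NES replicate 2 with WT replicate 3 under vehicle (0.23) were also above 0.1. These correlations thus set replicate 1 apart and do not separate replicates 2 and 3. Since every same-numbered correlation was above 0.1, the replicate numbers were taken as a possible pairing of the samples, which no label states. Calls and p-values given without mention of the block come from the fit that ignores such a pairing. The fit with the replicate number as a block is given where it changes a call.

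Genes named are MTOR, KLK3, KLK2, FKBP5 and TMPRSS2, the 15 highest and 15 lowest called protein-coding genes with at least 5 CPM in a group and no overlap, the 3 highest and 3 lowest called long noncoding genes by the same limits, and up to 4 called members of each of 40 gene lists. Further genes, the protocadherin, cancer testis and transcription factor families and chromosome 9 were chosen after their values were seen. The members and lists were chosen with earlier results of these data known. The alternatives were other scalings and filters, DESeq2 1.42.0, limma 3.58.1 on log2(FPKM + 1) and log2(FPKM + 0.1), a fit of the compared groups only, the block and leaving out libraries. The test was checked on simulated counts with known changes, drawn independently for each library and so without any effect of the replicate number. Under R1881 it called 38% of changes of 1 on the log2 scale and 86% of changes of 2. For the difference between treatments it called 11% and 58%, so a gene that was not called may still differ. Promoter sequences are from RefSeq (GRCh38.p14). Some genes that the rule or the lists hold are not reported here.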

Additional observations from a re-analysis of the deposited data

How the results depend on the processing

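For NES against WT under R1881 (266 genes called), the replicate block called 589 and DESeq2 446. Leaving out 1 library gave 137 to 181, and leaving out 1 replicate number in all groups, an alternative chosen after seeing the data, gave 124, 101 and 26 for numbers 1, 2 and 3. For the vehicle comparison (219 called), the count was 376 with no low-count filter, 55 in a fit of the compared groups only, 441 with the replicate block and 398 with DESeq2. It was 119 to 260 with 1 library left out, and 158, 86 and 29 with replicate number 1, 2 or 3 left out. For the difference between the 2 treatments (none called) 3 genes passed with no low-count filter, 2 with limma on log2(FPKM + 1) and 1 without replicate number 1, and 0 with 1 library left out. The cause of these shifts was not tested. The share of called genes that were higher in NES under R1881 was 56.4%, and it was 65.2% with no filter and 66.7% with limma on log2(FPKM + 1). Among the 63 genes named by rule, 1008 of the values over 19 settings kept their direction and side of the threshold, 183 kept the direction and missed the threshold, and none reversed (a stricter filter left some without a value). The chromosome 9 median ran from 0.261 to 0.362 over the alternatives. The replicate block ended none of the 266 calls and changed no other call of a named gene under R1881 beyond those given with the lists. Depth limits what is said of genes under 1 CPM, of which 0.327% were called, and 3 libraries a group limit all of it.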
